A study of Mus musculus with 9 samples.

Results

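Astrocytes differ in gene expression between parts of the brain, and 10 genes whose astrocytic level differed between libraries in an earlier reading of these counts are described here: Agt, Gfap, Itih3, Slc7a10, Htra1, Cldn10, Cxcl14, Btbd17, Aqp4 and Aldoc. They are 10 of the 18634 genes of the count table. The members were chosen by those values, so that their levels are a description and carry no test. Cells were taken as astrocyte-gated when they held at least 2 unique molecular identifiers (UMIs, each marking 1 captured transcript) of Slc1a3 and Aldoc together. Slc1a3 encodes a glial glutamate transporter and Aldoc an aldolase of glycolysis, and Aldoc is thus both a member and a gene of the gate. The gate held 5804 of 29571 cells. Between 103 and 290 cells of a library stood exactly at the minimum of 2 UMIs, and between 302 and 567 stood 1 UMI below it.

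Cortex, hypothalamus and brainstem were taken at ZT12 from male C57BL/6J mice of 9 to 11 weeks. Some mice slept undisturbed (NS, for normal sleep), others were deprived of sleep for 12 h (SD), and the rest recovered after such deprivation (RS), for which the sources give 24 h in one place and 12 h in another. All animals were wild type, all tissue was dissociated with papain and passed over myelin removal beads, and the tissue of 3 mice was pooled into each of the 9 libraries. Each combination of region and sleep group was therefore 1 library, and no value has a replicate. The codes of the libraries in the count table match no label and are not explained in the methods, and the libraries are numbered 1 to 9 here in the order of those codes. Codes 1 to 3, 4 to 6 and 7 to 9 share a stem, whose meaning the sources used here do not give. Only library 7 could be tied to a group, brainstem NS, because it held all 1999 barcodes of the study's list of such cells that were used here, against 5 to 13 in each other library. The other 8 libraries stay without region or sleep group, and each is given by its own value.

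An astrocyte is a glial cell that takes up glutamate and potassium from around synapses, feeds neurons with the products of glycolysis and covers blood vessels with endfeet rich in water channels. Its regional programs are laid down in development, and they include secreted proteins, transporters and junction proteins. The genes described here fall into such roles. Agt encodes angiotensinogen, the precursor of the angiotensin peptides, and Itih3 a heavy chain of the inter-alpha-trypsin inhibitor, which binds hyaluronan. Htra1 encodes a secreted serine protease, and Cxcl14 a chemokine. Slc7a10 encodes a transporter of small neutral amino acids such as serine and glycine, Aqp4 the water channel of the endfeet, Cldn10 a claudin and Gfap the intermediate filament of mature astrocytes. Btbd17 encodes a BTB domain protein.

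The promoters of 4 genes that the results turn on are shown first, because Agt and Itih3 were low in libraries 1 to 3 and Htra1 and Cxcl14 were high there. They run from 250 bases before to 50 after the annotated start, 5′ to 3′ on the gene's strand, and come from RefSeq on GRCm38.p6. Of the 10 genes, 9 had an entry and Aqp4 had none. Capitals mark TATAAA on either strand and each CG. Agt lies on the minus strand at chr8:124569657-124569956, Itih3 on the minus strand at chr14:30923538-30923837, Htra1 on the plus strand at chr7:130935953-130936252 and Cxcl14 on the minus strand at chr13:56296502-56296801.
Agt: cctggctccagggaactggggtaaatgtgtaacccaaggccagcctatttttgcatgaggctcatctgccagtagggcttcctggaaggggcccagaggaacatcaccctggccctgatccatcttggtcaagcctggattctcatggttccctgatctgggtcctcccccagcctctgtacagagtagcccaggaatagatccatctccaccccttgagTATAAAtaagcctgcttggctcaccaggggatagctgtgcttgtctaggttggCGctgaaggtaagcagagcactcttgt
Itih3: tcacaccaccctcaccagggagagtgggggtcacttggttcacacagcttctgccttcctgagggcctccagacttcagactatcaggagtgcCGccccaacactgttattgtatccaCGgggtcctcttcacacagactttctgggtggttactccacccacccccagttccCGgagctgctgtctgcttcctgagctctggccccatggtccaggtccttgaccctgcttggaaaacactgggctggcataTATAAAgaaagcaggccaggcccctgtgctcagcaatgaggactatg
Htra1: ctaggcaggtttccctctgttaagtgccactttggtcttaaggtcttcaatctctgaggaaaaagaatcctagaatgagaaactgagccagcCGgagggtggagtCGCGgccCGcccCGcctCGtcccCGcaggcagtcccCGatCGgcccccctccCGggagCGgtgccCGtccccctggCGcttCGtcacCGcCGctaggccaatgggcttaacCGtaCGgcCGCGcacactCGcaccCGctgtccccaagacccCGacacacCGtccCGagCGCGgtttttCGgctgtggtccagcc
Cxcl14: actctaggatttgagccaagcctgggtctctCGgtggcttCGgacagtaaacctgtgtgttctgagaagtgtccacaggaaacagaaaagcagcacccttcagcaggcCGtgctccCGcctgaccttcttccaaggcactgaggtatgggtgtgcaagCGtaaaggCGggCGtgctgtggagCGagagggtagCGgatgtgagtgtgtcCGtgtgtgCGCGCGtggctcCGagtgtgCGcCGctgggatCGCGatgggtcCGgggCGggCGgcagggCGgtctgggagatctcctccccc
The letters TATAAA occurred once in the Agt window, beginning 30 bases before the start, and once in the Itih3 window, beginning at base 4 after the annotated start. They were found in 13.6% of the 32851 promoters of this length and in neither the Htra1 nor the Cxcl14 window. Agt had 1 CG and Itih3 had 3, against 28 in Htra1 and 22 in Cxcl14 and a median of 7 over all promoters. Of the other members, Btbd17, also highest in libraries 1 to 3, had 3, Slc7a10 had 24 and Gfap had 3. The start sites of Cldn10 had 4 and 27 and those of Aldoc 8 and 3. None of these windows held TATAAA, and a link between the CG count and the levels was not tested. These matches describe the letters and do not show a bound factor. Cldn10 and Aldoc each had 2 entries, for 2 start sites, between which the counts do not distinguish.

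The gate was first set against the cell types that the study named in library 7. Of 188 listed astrocytes, 166 (88.3%) were in the gate. They made up 85.1% of the 195 listed cells that passed, followed by 13 microglia (6.67%) and 8 ependymocytes (4.10%). For the other libraries no cell type names were used here, and the purity of the gate was read from marker genes. Libraries 1 to 3 had 935, 1191 and 987 gated cells, libraries 4 to 6 had 396, 427 and 289, and libraries 7 to 9 had 378, 534 and 667. Median depth in the gate ran from 387 UMIs in library 2 to 1972 in library 6. The 10 genes of the astrocyte marker list, none of them a member, summed to between 16560 and 17968 CPM (counts per 1000000 UMIs) in libraries 1 to 3, to 4465, 7340 and 2126 in libraries 4 to 6, and to between 8594 and 12317 in libraries 7 to 9. The growth hormone transcript Gh reached 60789, 47921 and 74671 CPM in the gated cells of libraries 4 to 6. The 7 ependymal markers summed to 67 CPM in each of libraries 1 to 3 and to between 1260 and 4612 in the others. A CPM value in the gate therefore mixes the level per astrocyte with the share of its UMIs that came from astrocytes, and in a sum over cells these cannot be told apart.

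For this reason each gene is given on 2 scales. The first is CPM. The second is its UMIs per 1000 UMIs of 25 genes that astrocytes of all regions share, such as Slc1a2, Apoe, Cst3 and Gja1, a scale chosen after the data had been seen. Cst3 and Apoe made up between 44.9% and 57.7% of these UMIs, and neither is bound to astrocytes: in library 7, Cst3 held 70419 CPM in the listed microglia against 18008 in the listed astrocytes, and Apoe held 29709 CPM in macrophages against 20973. A stricter gate, which kept gated cells with under 2 UMIs of microglial, endothelial, ependymal, tanycyte or pituicyte, neuronal, oligodendrocyte and pituitary stem markers, left 799, 938, 649, 100, 170, 15, 132, 239 and 165 cells in libraries 1 to 9. It did not use the endocrine, choroid plexus, erythroid, pericyte, vascular smooth muscle or fibroblast markers, and in it pituitary endocrine transcripts still summed to 10967, 29423 and 153626 CPM in libraries 4 to 6, choroid plexus transcripts to 1749 in library 9 and erythroid transcripts to 21740, 32610, 13744 and 35307 in libraries 5, 7, 8 and 9. In library 6 the pericyte, vascular smooth muscle and fibroblast sums were 464, 1856 and 773 CPM. The part of these transcripts in the strict values was not tested. In the strict gate the 10 astrocyte markers summed to between 16045 and 21396 CPM in 8 libraries and to 7113 in library 6. The microglia-gated background of library 6 rests on 23 cells and 25816 UMIs, too few to tell 9 of the 10 genes in its gate from that background. Where library 6 sets the lowest value of a member's ratio, the ratio without it is given as well.

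**Figure D1:**
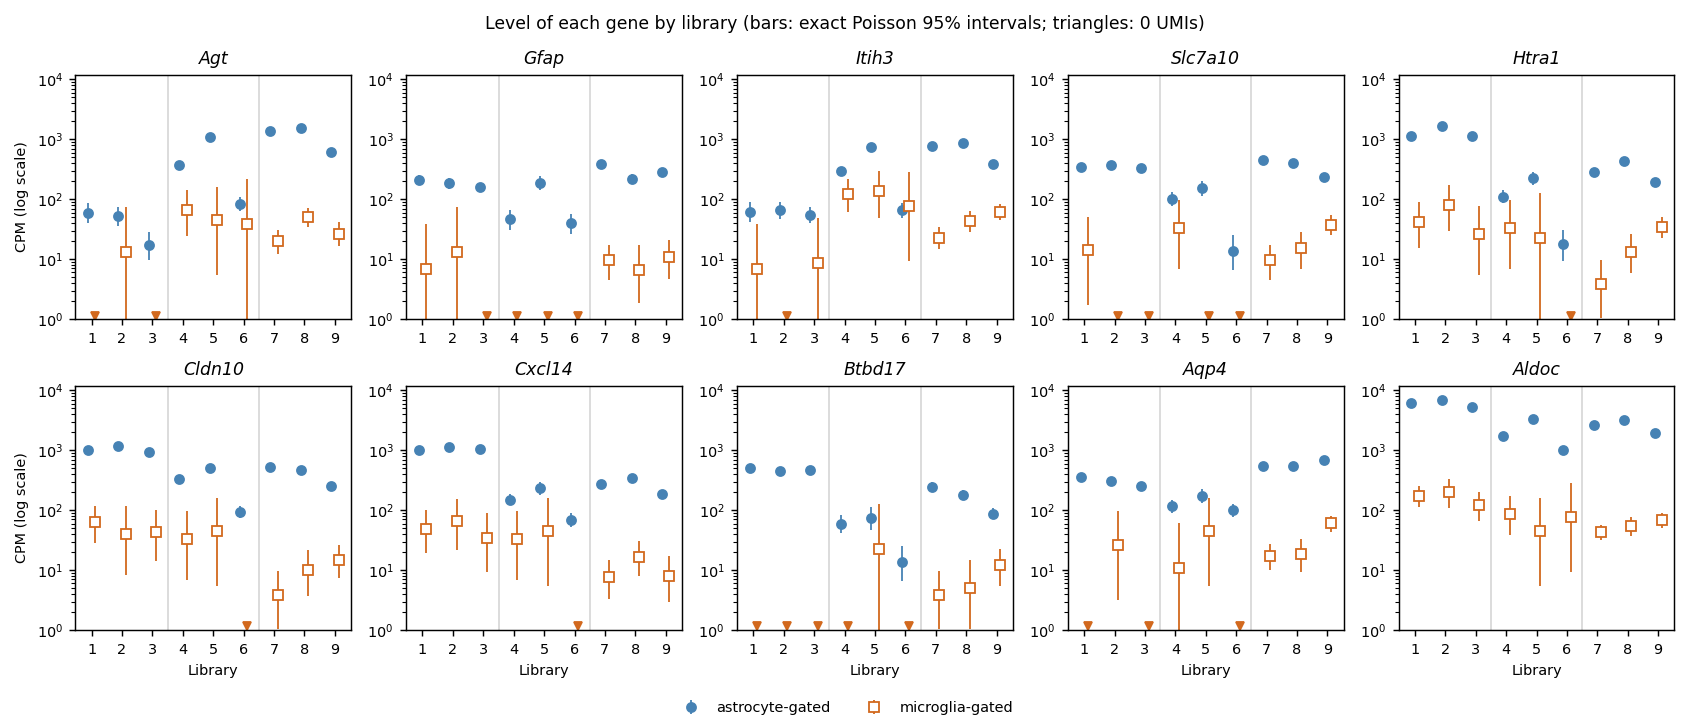
CPM of each gene (vertical log axis) in astrocyte-gated cells (circles) and in microglia-gated cells of the same library (squares), for libraries 1 to 9 on the horizontal axis; bars are exact Poisson 95% intervals and triangles mark 0 UMIs. Agt and Itih3 lie lower in libraries 1 to 3 than in 4, 5 and 7 to 9, and Htra1, Cxcl14, Cldn10 and Btbd17 lie higher there than in the other 6.

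Between the highest and the lowest library, all 10 genes differed by at least 4-fold in CPM. Of the 2944 genes with at least 50 CPM in the mean over libraries, which included all 10, 25.4% did so. The ratio had a median of 16.0 over the 10 genes, 2.50 over all genes tested and 8.27 over the 25 shared astrocyte genes, of which 22 were past 4-fold. Without library 6 these medians were 7.95, 2.34 and 3.91. Reaching 4-fold in CPM is thus not particular to these genes: the shared astrocyte genes did so as well, and library 6 was the lowest for 8 of the 10. Per UMI of the shared list and without library 6, the genes past 4-fold were Agt, Itih3, Htra1 and Aqp4. These 4 were also the ones past it with Cst3 and Apoe left out of the list. On that scale 58.1% of all genes tested were past 4-fold, among them transcripts of the other cell types in the gate, so that 4 of 10 members is below the background. Among the shared genes 2 of 25, Cspg5 and Slc4a4, passed. When the strict gate described above was used on the same scale, 3 of the 10 members were past 4-fold and Htra1 stood at 3.93. The share of all genes past 4-fold is not given for that setting, so this count has no background.

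Agt showed the widest range of the 10 genes per UMI of the shared list. Its CPM in libraries 1 to 9 was 60.0, 52.6, 17.2, 372, 1093, 83.3, 1371, 1554 and 616. Libraries 1 to 3 lay below all others, library 6 overlapping with library 1 in its interval, and the highest, library 8, was 90.6 times the lowest, library 3 (95% interval 54.6 to 163, for counting error only). Library 3 held 15 Agt UMIs in 987 gated cells, and without it the ratio was 29.6. Relative to the shared list, per 1000 of its UMIs, the 9 values were 0.73, 0.66, 0.22, 14.8, 23.4, 5.69, 23.9, 28.7 and 15.4. In the strict gate they were 0.76, 0.74, 0.26, 20.9, 31.8, 22.5, 33.8, 33.9 and 22.9, so that the 6 higher libraries lay within 1.63-fold of each other and the lowest of them stood 27.4-fold above the highest of libraries 1 to 3. With every cell thinned to 500 UMIs, Agt was found in 2.19%, 1.67% and 0.71% of gated cells in libraries 1 to 3, in 19.8%, 22.9% and 8.65% in libraries 4 to 6, and in 51.1%, 57.1% and 31.3% in libraries 7 to 9. In microglia-gated cells, which should lack it, the thinned share ran from 0 to 4.55%, and the shares of libraries 1 to 3 did not stand clear of that background.

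Itih3 had nearly the same order of libraries. Its CPM was 62.2, 66.6, 54.9, 290, 741, 65.5, 773, 866 and 381 in libraries 1 to 9. Library 8 was 15.8 times library 3 (95% interval 11.7 to 21.7). With the CPM of microglia-gated cells subtracted, library 6 fell below 0 and the ratio over the other 8 libraries was 17.8. Libraries 1 to 3 and library 6 overlapped in their intervals, and the other 5 lay above them. Itih3 stood per 1000 shared-list UMIs at 0.76, 0.84 and 0.72 in libraries 1 to 3, at 11.5, 15.9 and 4.48 in libraries 4 to 6, and at 13.5, 16.0 and 9.52 in libraries 7 to 9. The microglia-gated cells of libraries 4 to 6 held 121, 135 and 77.5 CPM from 11, 6 and 2 UMIs, which in library 6 was more than its gated cells held. In the strict gate the 6 higher libraries ran from 12.1 to 20.4 per 1000 and libraries 1 to 3 from 0.76 to 0.77.

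Htra1 was highest in libraries 1 to 3. Its CPM was 1149, 1637, 1130, 111, 225, 17.7, 282, 432 and 195 in libraries 1 to 9, a ratio of 92.3 between libraries 2 and 6 (95% interval 53.7 to 174). That ratio rests on 13 UMIs in library 6, and without this library it was 14.7. On the shared-list scale the values were 14.0, 20.7, 14.8, 4.40, 4.83, 1.21, 4.91, 7.97 and 4.87. The 3 highest libraries did not overlap with any other, and library 8 lay between them and the rest. The order at the top was the same in the strict gate, with 14.4, 21.6 and 15.7 in libraries 1 to 3 and 11.1 in library 8, while 4, 5, 7 and 9 lay between 5.48 and 7.46. Its thinned share was 33.6%, 47.8% and 44.8% of gated cells in libraries 1 to 3, against 9.91% to 22.6% in libraries 4, 5 and 7 to 9.

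Cxcl14 also stood highest in libraries 1 to 3. Its CPM was 1018, 1132, 1036, 150, 232, 69.6, 269, 342 and 186, a ratio of 16.3 between libraries 2 and 6, or 7.54 without library 6. In the strict gate the ratio was 3.74. It lay per 1000 shared-list UMIs between 12.4 and 14.3 in libraries 1 to 3 and between 4.65 and 6.32 in the other 6. The intervals of the 3 high libraries overlapped each other, those of the other 6 overlapped their neighbours, and the groups did not overlap. Libraries 1 to 3 held 12.9 to 15.1 in the strict gate and libraries 4, 5 and 7 to 9 held 4.78 to 8.23, while library 6 held 8.64 from 5 UMIs and overlapped with library 1. In library 6, 51 of the 338 Cxcl14 UMIs lay in gated cells, which held 13.3% of all UMIs of that library. In library 4 it was 88 of 350, where the gate held 14.8% of all UMIs, and in library 3 it was 906 of 1046, where the gate held 23.8%.

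Btbd17 was likewise highest in libraries 1 to 3, at a lower level of counts. It had 500, 445 and 467 CPM in libraries 1 to 3, 59.8, 75.1 and 13.6 in libraries 4 to 6, and 244, 179 and 87.8 in libraries 7 to 9. The ratio of 36.6 between libraries 1 and 6 (95% interval 19.6 to 77.4) rests on 10 UMIs, and without library 6 it was 8.37. Libraries 1 to 3 held 5.62 to 6.12 per 1000 shared-list UMIs, library 7 held 4.26 and library 5 held 1.61. All 8 neighbouring pairs in that order overlapped in their intervals, so that the order is firm only between its ends.

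Cldn10 had 1016, 1164, 946, 335, 499, 94.2, 526, 464 and 256 CPM in libraries 1 to 9, a ratio of 12.4 between libraries 2 and 6, or 4.54 without library 6. Most of that range went with the shared astrocyte genes. Per 1000 shared-list UMIs it ran from 6.40 in library 9 to 14.7 in library 2, a ratio of 2.29, and all 8 neighbouring pairs overlapped. Library 4 stood second on that scale with 13.3. One gated cell of library 4 held 22 Cldn10 UMIs, while the highest cell of the other libraries held between 4 and 10. Within the strict gate library 4 held 10.1 per 1000 and the range without library 6 was 8.85 to 14.4.

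**Figure D2:**
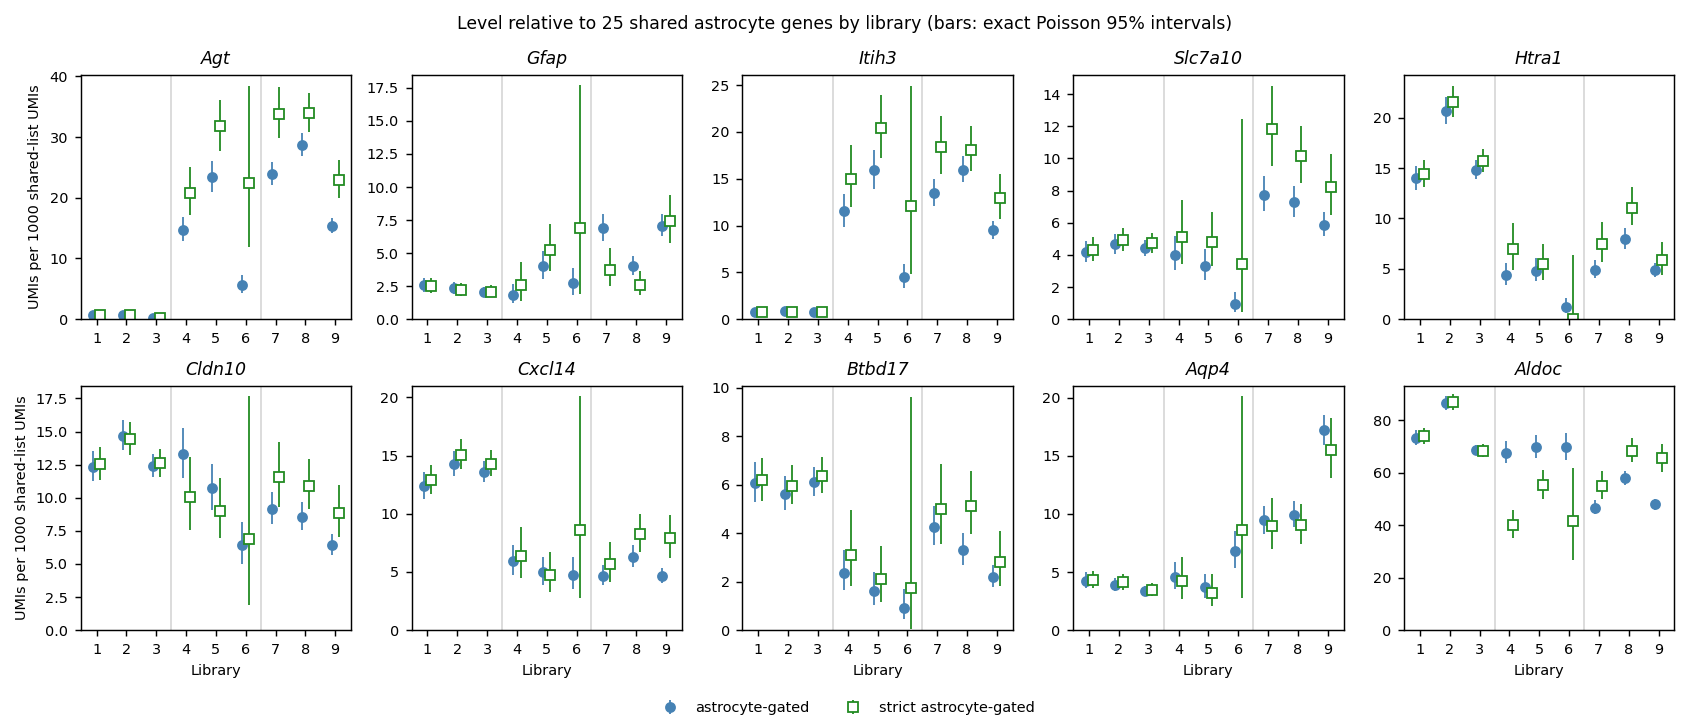
UMIs of each gene per 1000 UMIs of 25 shared astrocyte genes (vertical axis, linear, from 0) by library, in astrocyte-gated cells (circles) and in the strict gate (squares); bars are exact Poisson 95% intervals for the gene's UMIs. Agt and Itih3 are near 0 in libraries 1 to 3, Aqp4 is highest in library 9, and the strict gate of library 6 holds 15 cells.

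Slc7a10 was highest in libraries 7 and 8. Its CPM was 342, 368, 336, 101, 153, 13.6, 445, 395 and 235, where libraries 8 and 2 overlapped in their intervals. The ratio of 32.6 between libraries 7 and 6 (95% interval 17.4 to 69.0) rests on 10 UMIs in library 6 and was 4.41 without it. Per 1000 shared-list UMIs libraries 7, 8 and 9 held 7.75, 7.29 and 5.87, and libraries 1 to 5 held 3.29 to 4.64. In the strict gate the values were 11.8, 10.1 and 8.21 in libraries 7 to 9 and 4.32 to 5.12 in libraries 1 to 5. Library 9 overlapped with library 2 in the gate and with library 4 in the strict gate, where all 8 neighbouring pairs overlapped. Of the 11 genes fixed for serine and glycine handling, 7 passed the expression minimum and 1 of them, the glycine transporter Slc6a9, was past 4-fold per shared-list UMI without library 6, against 58.1% of all genes tested. Slc6a9 held 0.189, 0.133 and 0.105 per 1000 in libraries 1 to 3, 1.63, 2.17 and 1.49 in libraries 4 to 6, and 3.38, 3.92 and 3.12 in libraries 7 to 9. Slc3a2, the heavy chain that carries Slc7a10 to the membrane, ranged over 1.60-fold per shared-list UMI without library 6. With library 6 it ran from 3.49 per 1000 in library 1 to 9.80 in library 6, and its CPM ratio was 2.88.

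Aqp4 was highest in libraries 7 to 9. Its CPM was 351, 308, 255, 116, 173, 99.6, 541, 537 and 689, and its ratio between libraries 9 and 6 was 6.92 (95% interval 5.43 to 8.93), or 5.94 without library 6. The highest-to-lowest ratio was 3.11 in the strict gate and 10.8 with a gate of 3 UMIs. Per 1000 shared-list UMIs Aqp4 held 17.2 in library 9, 9.44 and 9.92 in libraries 7 and 8, 3.34 to 4.61 in libraries 1 to 5 and 6.81 in library 6, which overlapped with library 7. Library 9 did not overlap with library 8 on this scale. Ependymocytes also carry Aqp4, and the ependymal marker sum of library 9, at 4612 CPM, was the highest of the 9. Within the strict gate, where that sum was 141 CPM, library 9 held 15.5 per 1000, libraries 7 and 8 held 9.00 and 9.02, and libraries 1 to 5 held 3.23 to 4.32. Of the 9 genes fixed for the Aqp4 endfoot complex, all passed the minimum, 4 stood on the shared list as well, and 2 were past 4-fold per shared-list UMI without library 6, a smaller share than the 58.1% of all genes tested. These were Kcnj10, the inward rectifier that buffers potassium, with 0.641 to 1.03 in libraries 1 to 3, 2.38 to 3.59 in libraries 4 to 6 and 3.34 to 5.97 in libraries 7 to 9, and Slc4a4, the sodium bicarbonate cotransporter, with 3.16 to 4.11, 6.06 to 9.07 and 12.9 to 15.7.

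The UMIs of Gfap lay in few cells. Its CPM was 211, 184, 159, 46.1, 186, 39.6, 394, 218 and 283, a ratio of 9.95 between libraries 7 and 6, or 8.55 without library 6. This ratio was 2.57 in the strict gate, 3.88 with a gate of Slc1a3 and Slc1a2, and 62.3 with cells of at least 1000 UMIs. Per 1000 shared-list UMIs Gfap lay between 1.83 and 7.06, and 7 of 8 neighbouring pairs overlapped. The highest values were 7.06 in library 9 and 6.87 in library 7, which in the strict gate changed to 7.45 and 3.73. The 5% of gated cells with the most Gfap held 68.6% to 100% of its UMIs in the 9 libraries, and 81.0% in library 7. In library 7 the same share was 21.0% for Agt, 30.2% for Slc7a10, 34.6% for Aqp4 and 40.5% for Btbd17, though the number of Gfap UMIs there, 179, lay between those of Btbd17 with 111 and Slc7a10 with 202. The highest cell of libraries 7, 8 and 9 held 24, 21 and 18 Gfap UMIs, while no cell of libraries 1 to 6 held more than 9. For genes with few UMIs the share is 100% by construction, as for Gfap in library 4 and for Agt and Itih3 in libraries 1 to 3. In library 6, Cxcl14 had a share of 82.4% against 79.3% for Gfap.

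**Figure D3:**
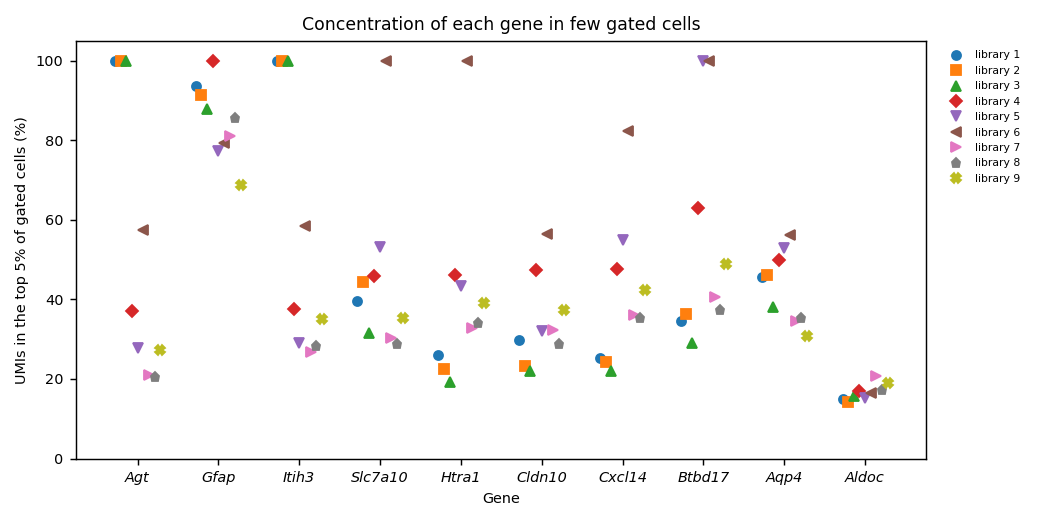
Percent of a gene's UMIs held by the 5% of gated cells with the most of it (vertical axis), by gene and library (symbols). Gfap lies between 68.6% and 100% in all 9 libraries and Aldoc between 14.3% and 20.6%; genes with few UMIs reach 100% by construction.

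Aldoc, which helped to set the gate, held 6026, 6862, 5237, 1706, 3260, 1022, 2679, 3145 and 1922 CPM in libraries 1 to 9. Its highest-to-lowest ratio of 6.71, or 4.02 without library 6, fell to 1.85 per UMI of the shared list, the narrowest of the 10. The values were 73.3, 86.6 and 68.7 in libraries 1 to 3, 67.7, 69.9 and 69.9 in libraries 4 to 6, and 46.7, 58.1 and 48.0 in libraries 7 to 9. Under a gate that used Slc1a3 and Slc1a2 in its place, the ratio of the highest to the lowest library in CPM was 7.98. Its relatives were more widely expressed. Aldoa, the aldolase of most tissues, held 439 to 1078 CPM, and of 16 genes fixed for glycolysis 14 passed the minimum, 7 were past 4-fold in CPM, where 25.4% of all genes tested were, and 5 per shared-list UMI without library 6, where 58.1% were.

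Shares of cells were compared between libraries at equal depth. At 500 UMIs per cell, 661 of 935 gated cells of library 1, 892 of 1191 of library 2 and 222 of 427 of library 5 were too shallow. They were left out, against 0 to 53 in each of the others. Cldn10 was found in 35.8%, 35.1% and 39.0% of gated cells in libraries 1 to 3 and in 26.6%, 26.3% and 15.7% in libraries 7 to 9. Before thinning, these were 34.5%, 41.4% and 52.7%, and 35.7%, 34.1% and 25.5%. In libraries 4 to 6 Cldn10 was found after thinning in 58 of 343, 43 of 205 and 21 of 289 gated cells. Aqp4 was found after thinning in 16.4%, 15.4% and 12.4% in libraries 1 to 3 and in 24.5%, 26.1% and 27.4% in libraries 7 to 9. Its shares in libraries 4 to 6 lay below all of these. In microglia-gated cells of the 9 libraries the Aqp4 share was 0 to 4.55%. The interval of the gated share lay above that of the microglia-gated share in 8 libraries for Cldn10, in 6 for Htra1 and Cxcl14, in 5 for Agt, Btbd17 and Aqp4, and in 4 for Gfap, Itih3 and Slc7a10. For Aldoc this was fixed by the gates. In libraries 2, 5 and 6 the microglia-gated cells deep enough for this numbered 22 or 23, which limits the comparison there.

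**Figure D4:**
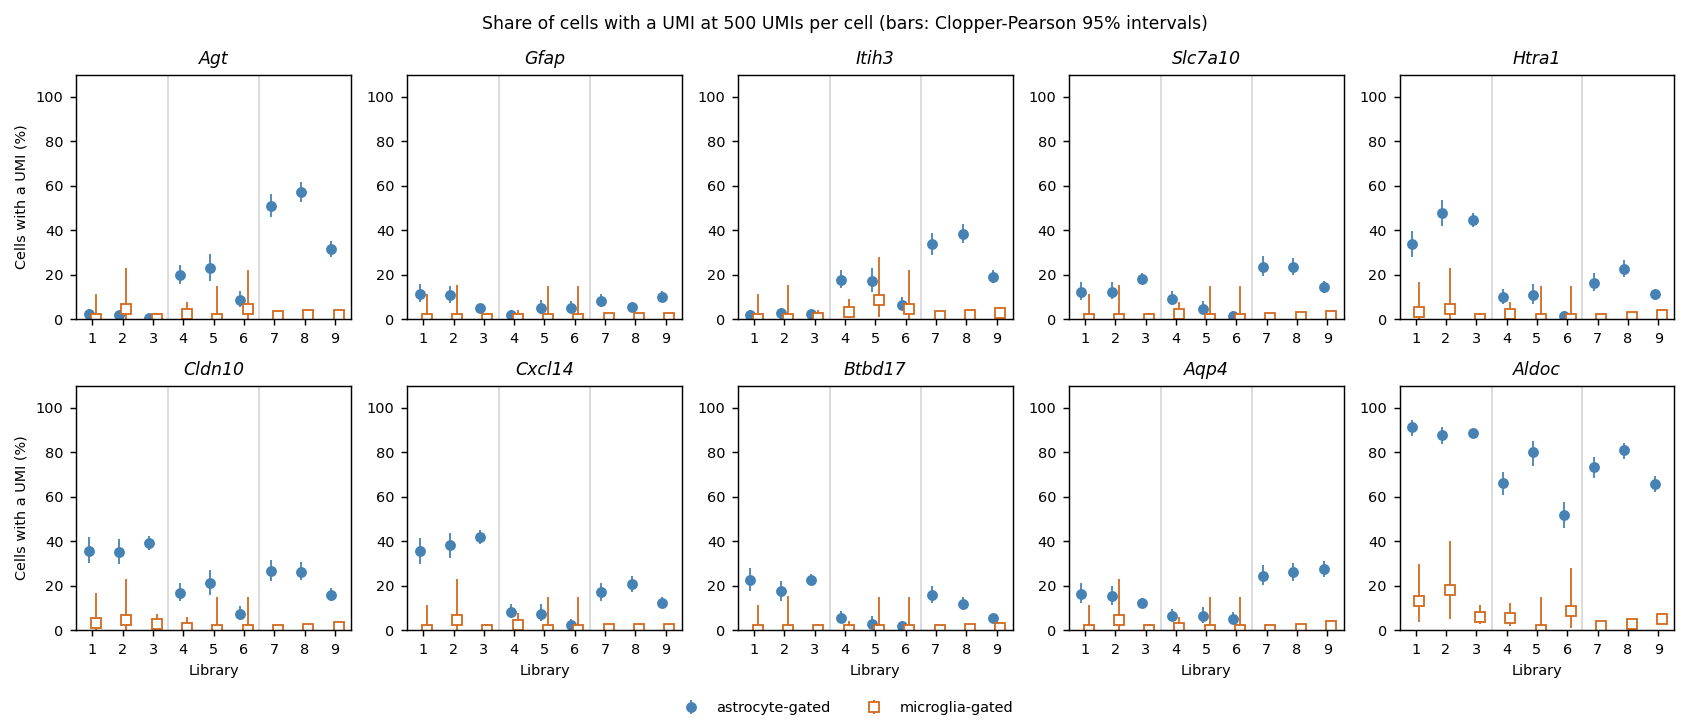
Percent of cells with at least 1 UMI of each gene after thinning every cell to 500 UMIs (vertical axis), in astrocyte-gated (circles) and microglia-gated cells (squares) by library; bars are Clopper-Pearson 95% intervals. Agt stays at or below 2.19% in libraries 1 to 3 and reaches 57.1% in library 8.

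In library 7, the brainstem NS library, all 10 genes were highest in the cells that the study named astrocytes. The level in those 188 cells was 2212 CPM for Agt, 1183 for Itih3, 724 for Slc7a10, 682 for Aqp4, 629 for Gfap and 3901 for Aldoc, and it was 835 for Cldn10, 465 for Htra1, 435 for Btbd17 and 412 for Cxcl14. Over all other listed cells the same genes held 26.5, 24.5, 16.4, 21.2, 9.62 and 47.6 CPM, and 3.85, 31.7, 6.25 and 6.73 CPM. Cldn10 had the highest ratio, at 217 times the level of the other listed cells (95% interval 107 to 513, from 8 UMIs outside astrocytes), with an interval that overlapped those of Agt, Gfap, Cxcl14 and Btbd17. Htra1 had the lowest, at 14.6 times (95% interval 10.4 to 20.6). These cells had been clustered on their genes by the authors, so the ratios describe the clusters and are no test. The members had also been chosen with earlier results of these data known. The share of all genes that were highest in these astrocytes is not given.

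The type that came next differed by gene. For Agt, Gfap, Itih3, Slc7a10, Htra1 and Aldoc it was the 55 glutamatergic neurons, where Agt held 153 CPM from 8 UMIs and Htra1 133 CPM from 7. The Agt UMIs lay in 2 of the 55 neurons, with 5 in 1 cell, and those of Htra1 in 5 cells. For Aqp4 and Btbd17 it was the 88 ependymocytes, with 194 CPM from 33 UMIs and 58.7 CPM from 10. For Cldn10 and Cxcl14 the next type, macrophages and the other neurons, rested on 2 UMIs each. Aqp4 in ependymocytes was 3.52 times lower than in astrocytes (95% interval 2.38 to 5.36), and 22.7% of ependymocytes held a UMI of it, at a median depth of 1752 UMIs, against 37.8% of astrocytes and 0.36% of microglia. With every cell thinned to 500 UMIs, the shares were 10.2% of ependymocytes, 26.5% of astrocytes and 0.37% of microglia. Agt was found in 73.4% of astrocytes, at a median depth of 771 UMIs, and in 2.19% of microglia, at 796 UMIs. Htra1 had 0 UMIs in 549 microglia and 29.3 CPM in 573 endothelial cells. Gfap was found in 13.8% of astrocytes, the smallest share of the 10 genes, next to 27.7% for Cxcl14.

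**Figure D5:**
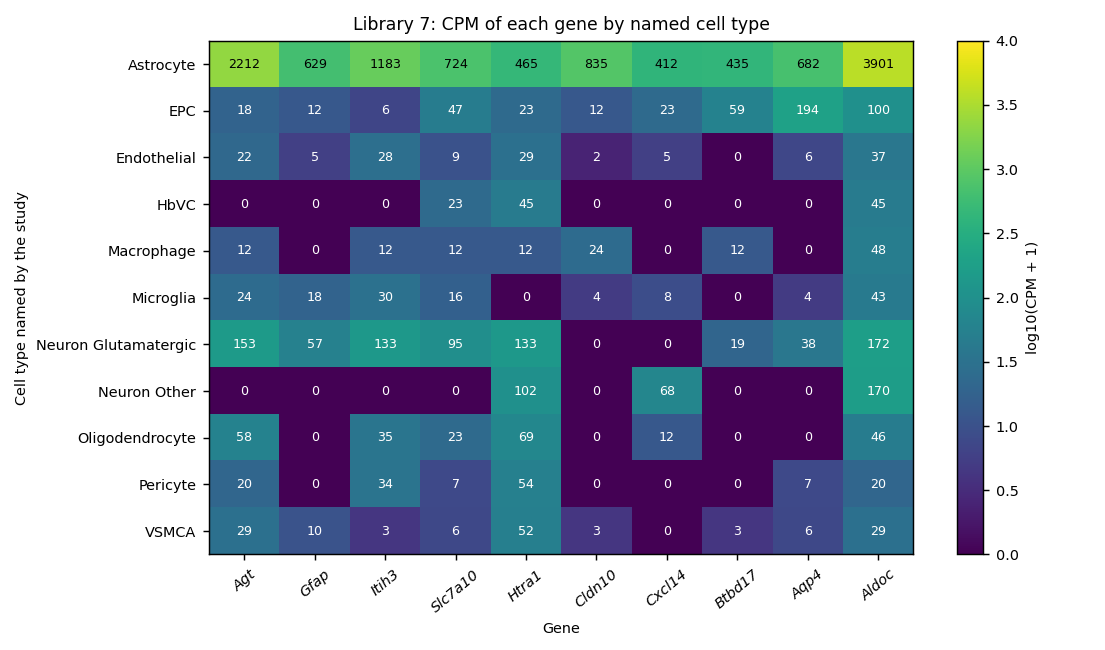
CPM of each gene (columns) in each cell type that the study named in library 7 (rows, types of at least 10 listed cells); the colour scale is log10(CPM + 1) and the numbers are CPM. All 10 columns are highest in the astrocyte row, and Aqp4 reaches 194 CPM in ependymocytes (EPC). HbVC are hemoglobin-expressing vascular cells and VSMCA are vascular smooth muscle cells.

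The relatives of Agt, Itih3, Htra1 and Cldn10 mostly stayed under a mean of 50 CPM in gated cells. So did most of the 18634 genes of the count table, of which 2944 passed, and this is thus not particular to the relatives. Of 11 renin-angiotensin genes other than Agt in the table, 1 passed 50 CPM. It was Atp6ap2, the prorenin receptor, with 57.3 to 169 CPM. Ace, the converting enzyme, and the angiotensin receptor Agtr1a stayed at or below 27.3 and 3.26 CPM in every library. Of the inter-alpha-trypsin inhibitor genes, Itih5 passed the minimum, with 27.3 to 108 CPM in the gate and 492 CPM in endothelial cells of library 7. Among claudins and junction genes, Cldn5 and Tjp1 passed, and Cldn5, the endothelial claudin, held 1605 CPM in endothelial cells and 76.5 in astrocytes. The protease Htra2 held 16.4 to 32.6 CPM, and Htra3 up to 6.86. Vim, the other filament gene of reactive astrocytes, held 66.3 to 207 CPM, and of 12 genes fixed for reactive astrocytes 3 passed, namely Vim, Lcn2 and Hspb1. Lcn2, an iron carrier protein, stood at 222, 101 and 358 CPM in libraries 4 to 6 and at most 5.27 in the others, where it was at 0 in libraries 1, 7 and 9, and it had 0 UMIs in the listed astrocytes of library 7. Lcn2 also stood on the list of 6 pituitary stem or folliculostellate markers that the strict gate used. That list, Lcn2 included, summed in the gate to 1709, 473 and 1570 CPM in libraries 4 to 6 and to 140 to 319 in the others. Pituitary endocrine transcripts in the gate summed to 81498, 56060 and 88275 CPM in libraries 4 to 6 and to at most 104 in the others. The part of pituitary cells of either kind in the Lcn2 values was not tested.

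Among 20 other genes known to differ between astrocytes of regions or layers, 17 passed the minimum and 10 were past 4-fold per shared-list UMI without library 6, against 58.1% of all genes tested. Sparc, a secreted matrix protein, held 1.27, 2.68 and 1.81 per 1000 in libraries 1 to 3 and 24.4 to 41.1 in the other 6. Slc6a11, a GABA transporter, held 2.84, 2.48 and 2.62 in libraries 1 to 3, 11.1, 10.0 and 4.76 in libraries 4 to 6, and 20.3, 21.8 and 16.0 in libraries 7 to 9. Mfge8, a secreted bridge to phagocytes, went the other way, with 18.2 to 20.9 in libraries 1 to 3 and 3.70 to 7.58 in the other 6. Sparc also held 1614.5 CPM in the listed microglia of library 7 against 1836 in its astrocytes, and the part of microglial RNA in its values was not tested.

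The genes most like each member over the 9 libraries were named by the mean absolute difference of log2(CPM + 10), centred on each gene's median, among 2943 others. Itih3 was the nearest gene to Agt at 0.46, with Sparc next at 0.68, where the median over all genes was 1.92. Itih3 itself was nearest to Spon1 at 0.33 and Sparc at 0.42. Htra1 was nearest to Cxcl14 at 0.34 and Gstm5 at 0.44, and Cxcl14 to Mertk at 0.19 and Grm3 at 0.22. Gm3764 was among the 2 genes nearest to Slc7a10, at 0.25. Cldn10 was nearest to Bcan at 0.18 and Slc1a3 at 0.19, and Btbd17 to Dbx2 at 0.16 and Lcat at 0.21. Aldoc was nearest to Slc27a1 at 0.13 and Enho at 0.14. Gfap was nearest to Selplg at 0.25 and Slc7a11 at 0.27, and Aqp4 to the mitochondrial mt-Atp6 at 0.24 and Adgrb3 at 0.26. Selplg is also a microglial gene, and the sum of 8 microglial markers in the gate was 4406, 2137 and 2337 CPM in libraries 7 to 9 against 116 to 1013 in the others, whose part in this likeness was not tested. All these distances share the same cells, depths and gate. With the levels scaled to the shared list, Itih3 and Sparc remained the nearest to Agt, while Htra1 was nearest to Grm3 at 0.32 and Fjx1 at 0.42, Cldn10 to Nrarp at 0.17 and Gpr162 at 0.18, and Aqp4 to Aif1 at 0.25 and Rgs10 at 0.28, of which Aif1 is a microglial gene.

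Detection of a pair of genes in the same cell was counted at 500 UMIs per cell. In library 8, Itih3 was found in 140 of 278 gated cells with Agt (50.4%, 95% interval 44.3 to 56.4) and in 47 of 209 without it (22.5%, 17.0 to 28.8). In the strict gate of that library the shares were 49.6% (41.1 to 58.2) and 34.3% (23.3 to 46.6), whose intervals overlap. In library 7 they were 78 of 190 (41.1%, 34.0 to 48.4) with Agt and 47 of 182 (25.8%, 19.6 to 32.8) without it in the gate, and 45 of 117 (38.5%) and 28 of 68 (41.2%) among the listed astrocytes. Gfap was found in 3 of 88 gated cells with Slc7a10 and 27 of 284 without in library 7, in 3 of 115 and 23 of 372 in library 8, and in 4 of 95 and 63 of 572 in library 9. Among the listed astrocytes it was found in 2 of 60 with Slc7a10 (3.33%, 95% interval 0.41 to 11.5) and in 16 of 125 without (12.8%). The intervals of these shares overlap, and in library 1 the shares were 12.1% and 11.2%.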

How the data were processed

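UMI counts per gene and cell were deposited by the authors as 1 table without normalization, made with Cell Ranger 2.2.0 on GRCm38 per the submitters' notes and the methods. The annotation release is not given in the sources used here. The members and gene lists were chosen with earlier results of these data known. Libraries were told apart by the code in each cell's name, and 8 of the 9 could not be assigned to a group. They held 2575 to 3916 cells and 1522766 to 5488950 UMIs each, and 96 to 143 barcodes of a library recurred in another, without a check that they were the same cells.

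UMIs were summed over cells and divided by total UMIs (CPM). CPM values have exact Poisson intervals at 95% and shares of cells have Clopper-Pearson intervals. These cover counting error only. With 1 library per group no test was made. A library at 0 entered a ratio at a floor of 3 counts. Microglia-gated cells had at least 3 UMIs of Cx3cr1, P2ry12, Csf1r and C1qa and were outside the astrocyte gate. They served as the background of free RNA. No doublet caller was used, and cells with 2 or more UMIs of the marker lists named for the strict gate were left out there. Named genes were the 10 members, up to 4 examples of each fixed list and the 2 genes most like each member, except that 1 of the 2 for Slc7a10 is not reported here. In addition Cspg5, Slc4a4, Ace, Htra3, Lcn2, Gh and the claudin and junction genes were chosen for naming with their values in view. Ren1, Itih1, Itih4, Ambp, Cldn25 and Htra4, which stood on the lists, were not analysed here. The cell types of library 7 come from the first part of the study's list, and types of at least 10 listed cells were used. The ratio calculation was tested on simulated counts. Intervals were computed in scipy 1.17.1 and figures drawn in matplotlib 3.10.9, both under Python 3.11.15.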

Additional observations from a re-analysis of the deposited data

How the results depend on the processing

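All 10 genes stayed at least 4-fold apart in CPM with a gate of 3 UMIs, with cells of at least 1000 UMIs, with totals without mitochondrial, hemoglobin and hormone genes, with free RNA subtracted, as the mean over cells, and without each library in turn. The count was 9 with a gate of Slc1a3 and Slc1a2, and 7 in the strict gate and between the second highest and second lowest library. Leaving out each library in turn had not been planned beforehand. Other alternatives, chosen after seeing the data, lowered the count further: 6 per UMI of the shared list, 4 when library 6 was also left out, with or without Cst3 and Apoe in the list, and 3 when the strict gate was added, where Htra1 stood at 3.93. Leaving out library 6 moved the ratio of 6 genes beyond its interval, all downward. Without library 3 the Agt ratio fell from 90.6 to 29.6. With free RNA subtracted, library 6 fell below 0 for Itih3, on a background of 2 UMIs, and the ratio without that library was 17.8. With cells of at least 1000 UMIs the ratio of Gfap moved from 9.95 to 62.3 and that of Btbd17 from 36.6 to 92.0. In the strict gate the ratios of Gfap, Cxcl14 and Aqp4 were 2.57, 3.74 and 3.11, and those of Htra1 and Slc7a10 fell from 92.3 to 8.92 and from 32.6 to 5.69. The strict gate also lowered Btbd17 from 36.6 to 7.63 and Cldn10 from 12.4 to 4.48, and it raised Itih3 from 15.8 to 28.2. The gate of Slc1a3 and Slc1a2 moved Itih3 from 15.8 to 38.5 and Htra1 to 33.5. The level of Gfap in the listed astrocytes moved from 629 to 1151 CPM with cells of at least 1000 UMIs. All 10 genes stayed highest in the listed astrocytes of library 7 under the 4 alternatives tried on them, and in its gated cells when these were set against microglia-gated and other cells, a gate that Aldoc helped to set. The members were chosen with earlier results of these data known, so this was no test. The share of all genes highest in these astrocytes is not given. The share of all genes past 4-fold was 31.9% among genes of at least 200 CPM and 56.3% with no minimum but 3 UMIs in all. Apart from the 25.4% and 58.1% above, this share is not given for the other settings, so the counts of members there have no background. No paired analysis was possible because 8 of the 9 libraries carry no group here. Depth limits libraries 1, 2 and 5, with medians of 413, 387 and 482 UMIs per gated cell, and the strict gate of library 6, with 15 cells and 12934 UMIs.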

Other observations

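The values of 3 genes are given by library here, since 8 of the 9 libraries carry no region or sleep group. Per 1000 shared-list UMIs in the strict gate, Agt stood at 0.76, 0.74 and 0.26 in libraries 1 to 3 and at 20.9, 31.8, 22.5, 33.8, 33.9 and 22.9 in libraries 4 to 9, with no value between. Slc7a10 stood at 4.32, 4.92, 4.71, 5.12, 4.78 and 3.45 in libraries 1 to 6 and at 11.8, 10.1 and 8.21 in libraries 7 to 9, with all neighbouring intervals overlapping. Aqp4 stood at 4.32, 4.12, 3.46, 4.21 and 3.23 in libraries 1 to 5, at 8.64 from 5 UMIs in library 6, and at 9.00, 9.02 and 15.5 in libraries 7 to 9. Library 6 overlapped there with libraries 1 and 7, and library 9 lay above library 8.

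Cspg5, a brain proteoglycan that stood on the list of shared astrocyte genes, had a range of its own. It held 12.1, 10.0 and 11.3 per 1000 shared-list UMIs in libraries 1 to 3, 4.33, 1.68 and 1.12 in libraries 4 to 6, and 1.38, 1.13 and 1.63 in libraries 7 to 9. In library 7 it held 88.2 CPM in the listed astrocytes, 248 in glutamatergic neurons and 306 in other neurons. The neuronal markers in the gate summed to 1580 to 3037 CPM in libraries 1 to 3, 2973 to 3326 in libraries 4 to 6 and 445 to 864 in libraries 7 to 9. The part of neuronal RNA in the Cspg5 values was not tested. The scale that was meant to be even between libraries thus held at least 1 gene that was not. Chrdl1, which is known from upper layers of cortical astrocytes, held 60.0, 50.8 and 73.2 CPM in the gated cells of libraries 1 to 3 and at most 3.90 in the other 6, and it did not reach the mean of 50 CPM.

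In library 9 the choroid plexus transcript Ttr reached 15140 CPM in gated cells, against at most 19.8 in the other 8 libraries, and its part in the values of library 9 was not tested.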
